A study of Mus musculus with 282 samples.

Results

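The receptors through which myeloid progenitors sense growth factors were examined in individually picked GMPs, the granulocyte-monocyte progenitors of mouse bone marrow, from which granulocytes and monocytes arise. The set held 9 genes of the 55450 in the count tables, chosen by gene identifier: Kit (ENSMUSG00000005672), Flt3 (ENSMUSG00000042817), Csf1r (ENSMUSG00000024621), Csf2ra (ENSMUSG00000059326), Csf2rb (ENSMUSG00000071713), Csf3r (ENSMUSG00000028859), Il6ra (ENSMUSG00000027947), Cd34 (ENSMUSG00000016494) and Fcgr3 (ENSMUSG00000059498). All 9 passed the low-count filter in every comparison, Flt3 with few reads.

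Every cell came from GFP-p65 homozygous, H2BmCherry heterozygous mice, male and female, 12 to 19 weeks of age. GFP is fused to p65, one of the NfkB transcription factor subunits, and mCherry to a histone. The cells were cultured for 8 h on a confocal microscope, picked singly with a micromanipulator and sequenced by Smart-Seq2, which amplifies polyadenylated RNA of 1 cell. The authors' deposited cell tables list 238 of the 282 samples, 178 with TNF, a cytokine that activates NfkB, and 60 marked blank, read here as no cytokine.

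The tables also give each cell an NfkB response class. The classes compared were oscillatory TNF (20 cells of the 1-plate experiment, 36 of the 2-plate experiment), transient TNF (25 and 51 cells) and non-responsive blank (13 and 34 cells). The sources used here do not say how classes were assigned or how animals were split over experiments. All groups carried both reporters, so none shows cells without them. Each cell held 182301 to 3380416 reads in genes (median 1339522), without molecular identifiers. Intervals given for shares of cells treat the cells as independent draws and cover no spread between experiments.

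Kit, Flt3 and Csf1r are receptor tyrosine kinases, for stem cell factor, Flt3 ligand and the monocyte growth factor M-CSF. Csf2ra and Csf2rb form the GM-CSF receptor, Csf3r is the receptor of the neutrophil growth factor G-CSF, and Il6ra is the ligand-binding chain of the interleukin 6 receptor. Cd34 is a surface sialomucin of progenitors, and Fcgr3 is an activating receptor for the Fc part of IgG. Surface Kit, Cd34 and Fc gamma receptors are used together to sort GMPs, and Csf1r and Csf3r become prominent as cells move toward monocytes and neutrophils.

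Promoters are shown for 3 of these receptors because NfkB is the factor followed in the study and PU.1, whose core site holds the letters AGGAAG, is a myeloid regulator. RefSeq (GRCm38.p6) promoters of 7 of the 9 genes were used, with none for Csf1r or Csf2rb. Receptors on an excluded chromosome were left out, while the 32851 promoters of the whole table kept that chromosome. The 250 bases before the start site were searched on both strands. The NfkB (kB) consensus matched in 2 of these 7, Csf3r and Fcgr3, and in 7.25% of the 32851 promoters in the table. AGGAAG matched in 6 of the 7 and in 29.5% of all promoters. In Csf3r (chr4:126024409-126024658, plus strand) and Fcgr3 (chr1:171059404-171059653, minus strand) the capitals mark the kB match, which overlaps an AGGAAG in Csf3r. In Csf2ra (chr19:61228419-61228668, minus strand) they mark 2 adjacent AGGAAG. A match is a run of letters and not a measured site.

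Csf3r: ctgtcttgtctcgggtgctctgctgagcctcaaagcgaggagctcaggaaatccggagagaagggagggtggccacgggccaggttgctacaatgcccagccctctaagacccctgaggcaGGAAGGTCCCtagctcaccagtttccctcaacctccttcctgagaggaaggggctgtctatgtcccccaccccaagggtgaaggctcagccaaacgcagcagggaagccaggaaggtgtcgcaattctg
Fcgr3: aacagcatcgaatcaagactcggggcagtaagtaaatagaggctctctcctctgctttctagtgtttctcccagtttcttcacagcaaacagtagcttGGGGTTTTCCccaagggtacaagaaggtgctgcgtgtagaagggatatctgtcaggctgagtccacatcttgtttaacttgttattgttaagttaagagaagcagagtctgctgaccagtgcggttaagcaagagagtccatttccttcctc
Csf2ra: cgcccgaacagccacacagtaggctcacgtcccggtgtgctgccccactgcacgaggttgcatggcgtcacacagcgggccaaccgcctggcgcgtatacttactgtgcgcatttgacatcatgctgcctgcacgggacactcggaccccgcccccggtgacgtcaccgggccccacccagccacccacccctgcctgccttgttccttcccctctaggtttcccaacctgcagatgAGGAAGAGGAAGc

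GMPs of this series carried reads of most of these receptors. A cell held reads of a median of 8 of the 9 genes, with a range of 2 to 9. Kit reads were found in 230 of 238 cells (96.6%, exact 95% interval 93.5 to 98.5%), Fcgr3 reads in 221 (92.9%, 88.8 to 95.8%) and Cd34 reads in 160 (67.2%, 60.9 to 73.2%). Those are the genes behind the sorting markers, and their reads were present under the GMP label. Flt3 was the exception, with 237 reads in all and reads in 27 cells (11.3%, 7.61 to 16.1%). By experiment the Flt3 share was 23.9% (14.3 to 35.9%) in the 1-plate and 6.43% (3.25 to 11.2%) in the 2-plate experiment. Both lay outside the pooled interval, which does not cover the spread between experiments. At 5 or more reads the shares were 91.6% for Kit, 86.97% for Fcgr3, 58.8% for Cd34 and 5.46% for Flt3, each below its interval at 1 read. No cell type that should lack these genes was available to set a background for such shares.

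**Figure D1:**
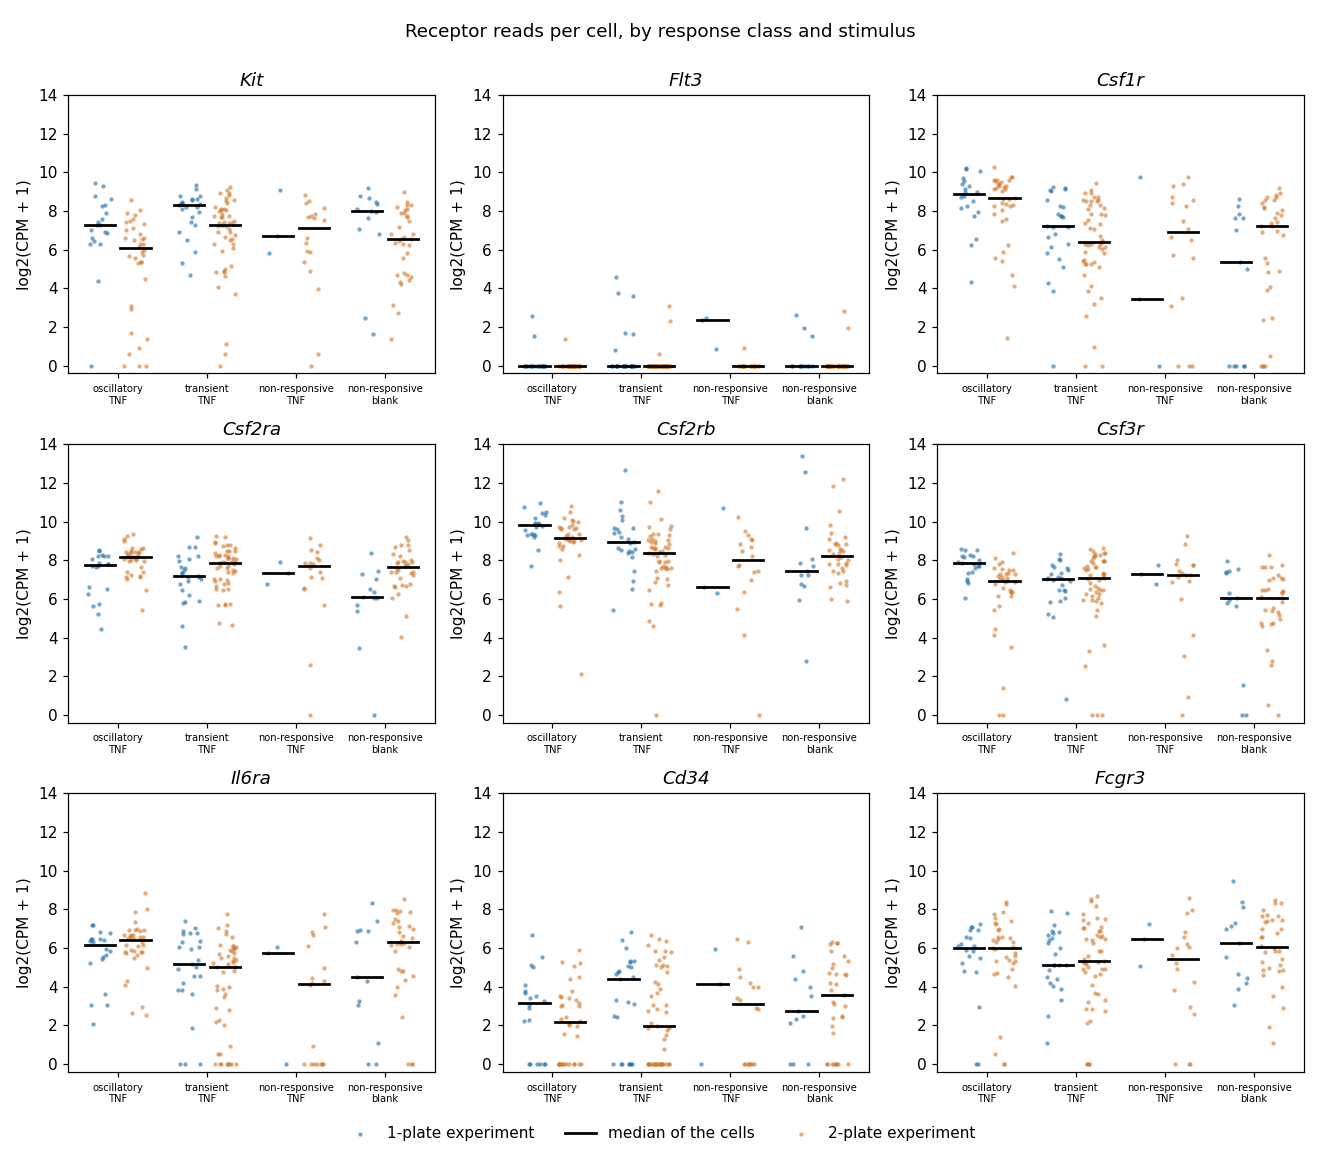
Level of each receptor in single cells, as log2(CPM + 1) on the vertical axis, by response class and stimulus on the horizontal axis. Points are cells of the 1-plate experiment (blue) and the 2-plate experiment (orange), and black lines are medians of the cells. Csf1r medians are highest in oscillatory TNF cells in both experiments, and Flt3 lies at 0 in most cells.

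Csf1r was higher in oscillatory TNF cells than in non-responsive blank cells. Summed over cells, Csf1r had 519.7 and 473 CPM (reads of a gene scaled to the reads of the library) in oscillatory TNF cells of the 1-plate and 2-plate experiment, against 106 and 193 CPM in non-responsive blank cells. Both oscillatory sums lay above both blank sums. The fitted log2 fold change was 1.82 ± 0.27 (SE, 2 experiments), with an adjusted p of 0.029 in edgeR's quasi-likelihood test across 16586 genes. Csf1r was the only 1 of the 9 receptors called in that comparison, where 2.35% of all genes were called. The 2 classes are different cells, so stimulus and selection by response class cannot be told apart. At an unadjusted p under 0.05 there were 4 receptors and 16.2% of all genes. DESeq2 called 3 receptors, with 9.96% of all genes, and edgeR with a stricter filter 2, with 8.75%. With scaling by spike-in RNA the adjusted p was 0.844, without the experiment term 0.126, without the 1-plate experiment 0.061 and without Plate1 of the 2-plate experiment 0.116. The log2 fold change was then 2.27, 1.76, 1.47 and 1.75.

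The difference was also present cell by cell. Every oscillatory TNF cell had Csf1r reads (20 of 20 and 36 of 36), and 8 of 13 and 30 of 34 non-responsive blank cells had them. The median oscillatory TNF cell had 469 CPM (range 19.2 to 1198) and 399.8 CPM (1.64 to 1240) of Csf1r. The median non-responsive blank cell had 40.5 CPM (0 to 390) and 149 CPM (0 to 591). Single cells of the classes overlapped in both experiments. Median reads were 950619 and 1924509 in oscillatory TNF cells, against 939922 and 1806716 in non-responsive blank cells. Csf1r correlated with reads per cell at 0.07 and 0.31 (Spearman, 1-plate experiment first). With detected genes the values were 0.07 and 0.26. Whether depth had a part in this cell-by-cell difference was not tested.

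Transient TNF cells lay lower in Csf1r. Their sums were 226 and 188 CPM, and their medians 148 and 81.8 CPM. Against non-responsive blank cells the log2 fold change was 0.50 ± 0.26 (adjusted p = 0.706, edgeR). The transient sum exceeded that of the blank cells in the 1-plate experiment and was just under it in the other. There the plates went opposite ways, with 226 against 160 CPM on Plate1 and 147 against 225 CPM on Plate2. Between oscillatory and transient TNF cells the log2 difference in Csf1r was 1.32 ± 0.26, which did not pass the threshold in edgeR (adjusted p = 0.129) and did so with DESeq2 (adjusted p = 7.68e-07) and with a stricter low-count filter (adjusted p = 0.034). The 3 class comparisons share sums with each other, so their values are not independent.

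Other classes had sums in 1 experiment only and were not tested. In the 2-plate experiment, Csf1r stood at 310.1 CPM in non-responsive TNF cells (n = 18), 543 CPM in unclear TNF cells (n = 16), 125 CPM in sustained TNF cells (n = 5) and 225 CPM in oscillatory blank cells (n = 5). Unclear TNF cells thus stood above the oscillatory ones of that experiment, and 81.7% of the oscillatory blank reads came from 1 cell.

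Cell cycle phase moved with Csf1r as well. Phases are those of the authors' cell tables. S-phase cells had 97.2 and 127 CPM in the 1-plate and 2-plate experiment, G1 cells 393 and 357 CPM, and G2M cells 340.2 and 299.99 CPM. Oscillatory TNF cells held 2 S-phase cells of 20 and 2 of 36, and non-responsive blank cells 3 of 13 and 5 of 34. Within G2M, Csf1r had 445 and 405 CPM in oscillatory TNF cells (14 and 22 cells), against 83.7 and 187 CPM in non-responsive blank cells (7 and 20 cells). Within G1 it had 834 and 693 CPM in oscillatory TNF cells (4 and 12 cells), against 159 and 260.4 CPM in non-responsive blank cells (3 and 9 cells). Oscillatory sums exceeded blank sums inside both phases, which was not tested.

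Kit pointed the other way from Csf1r among TNF cells without passing the test. Kit had 213 and 88.5 CPM in oscillatory TNF cells, 288 and 195 CPM in transient TNF cells, and 258 and 152 CPM in non-responsive blank cells. In each experiment the oscillatory sum was the lowest of the 3 and the transient sum the highest. The log2 difference between oscillatory and transient TNF cells was -0.72 ± 0.19 (adjusted p = 0.238 in edgeR, 0.014 with DESeq2). Against non-responsive blank cells the values were -0.45 ± 0.19 for oscillatory TNF cells (adjusted p = 0.316, edgeR) and 0.27 ± 0.19 for transient TNF cells (adjusted p = 0.763, edgeR). With spike-in scaling the sign for oscillatory TNF cells turned, to a log2 fold change of 0.16.

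Flt3, which marks earlier progenitors, had few reads, and its fitted values had wide errors. Its sums were 0.37 and 0.05 CPM in oscillatory TNF cells, 1.66 and 0.37 CPM in transient TNF cells, and 0.82 and 0.21 CPM in non-responsive blank cells. Of the oscillatory TNF cells 2 of 20 and 1 of 36 had a read, and of the non-responsive blank cells 3 of 13 and 2 of 34. The log2 fold change was -1.52 ± 1.01 for oscillatory TNF against non-responsive blank cells (adjusted p = 0.519, edgeR) and 0.90 ± 0.95 for transient TNF against non-responsive blank cells (adjusted p = 0.869, edgeR). Between oscillatory and transient TNF cells it was -2.42 ± 1.01 (adjusted p = 0.498, edgeR). Flt3 did not pass the threshold in any of them.

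Both chains of the GM-CSF receptor were read in nearly all cells. Csf2ra, the ligand-binding chain, had 204 and 299 CPM in oscillatory TNF cells, 197 and 231 CPM in transient TNF cells, and 92.4 and 213 CPM in non-responsive blank cells. Its log2 fold change in oscillatory TNF against non-responsive blank cells was 0.85 ± 0.22 (adjusted p = 0.129, edgeR). DESeq2 gave an adjusted p of 0.0012 and the stricter filter 0.044. Most of the gap came from the 1-plate experiment, whose blank sum was the lowest.

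Csf2rb, the shared signalling chain, gave different pictures in sums and in typical cells. From sums it had 964 and 691 CPM in oscillatory TNF cells, 1009 and 481 CPM in transient TNF cells, and 1401 and 617 CPM in non-responsive blank cells. The log2 fold change of oscillatory TNF over non-responsive blank cells was -0.11 ± 0.19 (adjusted p = 0.838, edgeR), and with spike-in scaling it was 0.46. The median cell, in contrast, had 894 and 572 CPM in oscillatory TNF cells, 497 and 327 CPM in transient TNF cells, and 173 and 302 CPM in non-responsive blank cells. Sum and median of oscillatory TNF over non-responsive blank cells went opposite ways in the 1-plate experiment, and both were higher in oscillatory TNF cells in the other. There the plates disagreed, with sums of 780.3 against 252.2 CPM on Plate1 and 522.2 against 958.8 CPM on Plate2. Plate medians went the same ways as these sums, with 648.1 against 227.2 CPM on Plate1 and 453.6 against 465.8 CPM on Plate2. A single blank cell of the 1-plate experiment, at 10708 CPM, gave most of the Csf2rb reads of its class. A test on the mean log2 level over cells, added after the data were seen, gave a log2 difference of 1.19 (adjusted p = 0.211, limma). The mouse has a near-identical copy, Csf2rb2, so reads may have been split between the genes and these levels are uncertain.

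**Figure D2:**
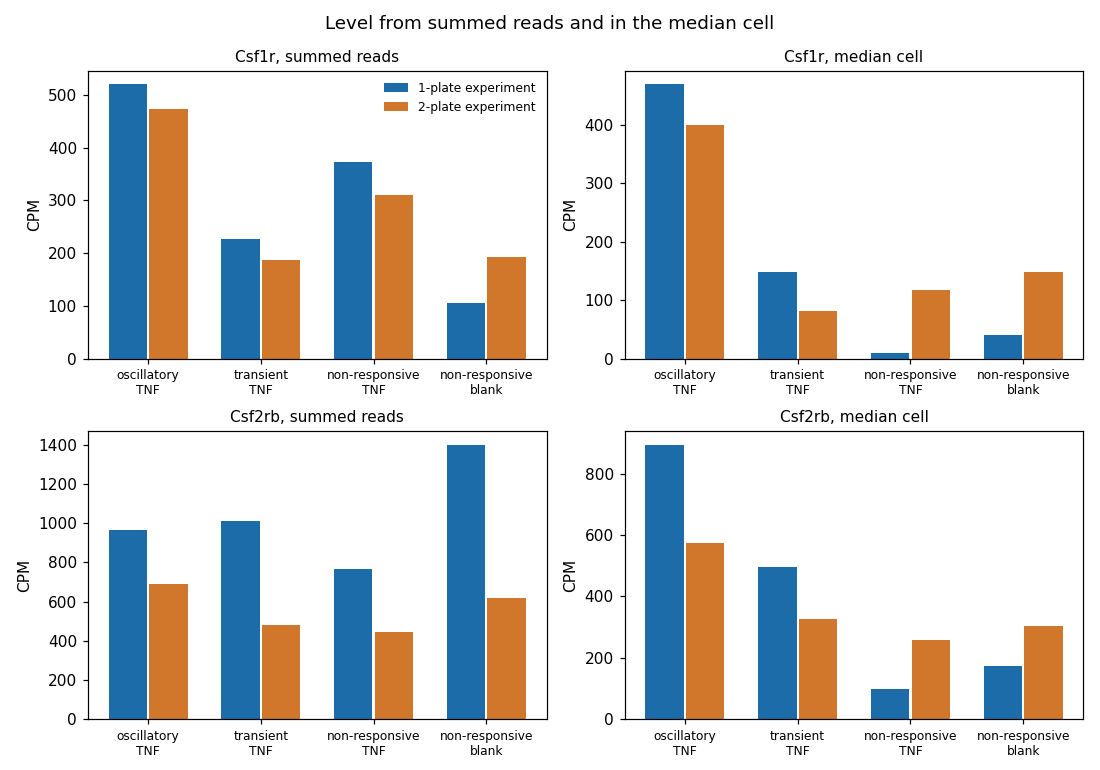
Csf1r (upper row) and Csf2rb (lower row) in CPM, from the summed reads of a class (left) and in its median cell (right), with bars for the 1-plate (blue) and 2-plate (orange) experiment. Non-responsive TNF holds 3 and 18 cells. For Csf2rb the 1-plate non-responsive blank bar stands at 1401 CPM from sums and at 173 CPM in the median cell.

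Csf3r lay higher with TNF, in sums and in median cells. All TNF cells had 174 and 164 CPM, against 112 and 76.1 CPM in all blank cells. Median cells had 157 and 132 CPM with TNF, against 83.4 and 66.1 CPM in blank cells. The log2 fold change was 0.89 ± 0.19 (adjusted p = 0.178 in edgeR), and the call was made with DESeq2 (0.0020), without a low-count filter (0.027) and with the stricter one (0.043). By class, Csf3r had 236 and 129 CPM in oscillatory TNF cells, 134 and 168 CPM in transient TNF cells, and 111 and 78.6 CPM in non-responsive blank cells. Which TNF class was higher differed between the experiments.

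Il6ra was not called in any comparison in edgeR. Its sums were 63.6 and 102 CPM in oscillatory TNF cells, 51.4 and 40.3 CPM in transient TNF cells, and 64.9 and 98.6 CPM in non-responsive blank cells. Oscillatory TNF and non-responsive blank cells differed by a log2 value of 0.08 ± 0.27 (adjusted p = 0.937, edgeR). Their median cells differed more in the 1-plate experiment, at 69.84 against 21.98 CPM, than in the other, at 83.17 against 78.3 CPM. Sums on the plates of the 2-plate experiment went opposite ways, with log2 values of -0.457 on Plate1 and 0.699 on Plate2. Transient TNF cells differed from non-responsive blank cells by a log2 value of -0.79 ± 0.28 (adjusted p = 0.579, edgeR). For that comparison, median cells of the 1-plate experiment went the other way, with 34.6 CPM in transient TNF cells and 21.98 CPM in non-responsive blank cells. Oscillatory TNF cells lay above transient ones by 0.87 ± 0.28 (adjusted p = 0.338 in edgeR, 0.041 with DESeq2).

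Cd34 and Fcgr3 had lower fitted values in oscillatory TNF cells than in non-responsive blank cells, and neither passed. Cd34 had 13.9 and 9.05 CPM in oscillatory TNF cells, 22.3 and 19.8 CPM in transient TNF cells, and 24.5 and 25.2 CPM in non-responsive blank cells. Its log2 value in oscillatory TNF against non-responsive blank cells was -1.08 ± 0.30 (adjusted p = 0.157, edgeR). One blank cell of the 1-plate experiment gave 54.2% of its class's Cd34 reads. Median cells of that experiment went the other way, with 7.93 CPM in oscillatory TNF cells and 5.75 CPM in non-responsive blank cells, while in the 2-plate experiment they had 3.46 CPM in oscillatory TNF cells and 10.8 CPM in non-responsive blank cells.

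Fcgr3 had 70.1 and 96.6 CPM in oscillatory TNF cells, 65.6 and 90.5 CPM in transient TNF cells, and 160.2 and 105 CPM in non-responsive blank cells. The gap was in the 1-plate experiment, where 1 blank cell gave 40.4% of the reads. Without that experiment the log2 value changed sign, 0.12 in place of -0.63 ± 0.30, and it was 0.04 with spike-in scaling. Fcgr3 also differed between phases, with 189.8 and 165 CPM in G1 cells and 57.7 and 74.3 CPM in G2M cells, a difference that was not tested.

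Over all listed cells, 0 of the 9 receptors were called for TNF against blank, where 0.446% of 15479 genes were called. At an unadjusted p under 0.05 in edgeR there were 4 receptors, with 10.9% of all genes. DESeq2 called 2, Csf1r and Csf3r, with 4.92% of all genes. The same 2 were called by edgeR with the stricter filter, which called 3.46% of genes, and without a filter, which called 1.4%. Csf1r had 351 and 329.8 CPM with TNF, against 152 and 195 CPM in blank cells, a log2 fold change of 1.002 ± 0.16 (adjusted p = 0.092, edgeR). On Plate2 of the 2-plate experiment the Csf1r sums and medians went opposite ways, with a median of 90.3 CPM in TNF cells and 204 CPM in blank cells. That plate held all 26 cells of the 2-plate experiment with under 8000 detected genes, 24 with TNF and 2 blank. Their part in the medians was not tested. Csf2ra stood at 0.55 ± 0.16 and Cd34 at -0.71 ± 0.25 on the log2 scale (adjusted p = 0.315 and 0.413, edgeR).

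For transient TNF against non-responsive blank cells 0 receptors were called in edgeR, against 0.133% of genes. An unadjusted p under 0.05 was found for 4 receptors and 7.48% of genes, and DESeq2 called 0 receptors and 2.43% of genes. For oscillatory against transient TNF cells 0 were called in edgeR, against 0.199% of genes. Here 4 receptors and 10.1% of genes had an unadjusted p under 0.05. DESeq2 called 3 receptors and 5% of genes, and edgeR with the stricter filter 1 receptor and 3.1% of genes. Between the experiments 7 of 9 receptors kept their direction for TNF against blank, 7 of 9 for oscillatory TNF against non-responsive blank, 8 of 9 for transient TNF against non-responsive blank and 7 of 9 for oscillatory against transient TNF. Over all genes tested the shares with the same direction were 57.6%, 58.3%, 50.3% and 60.4%.

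**Figure D3:**
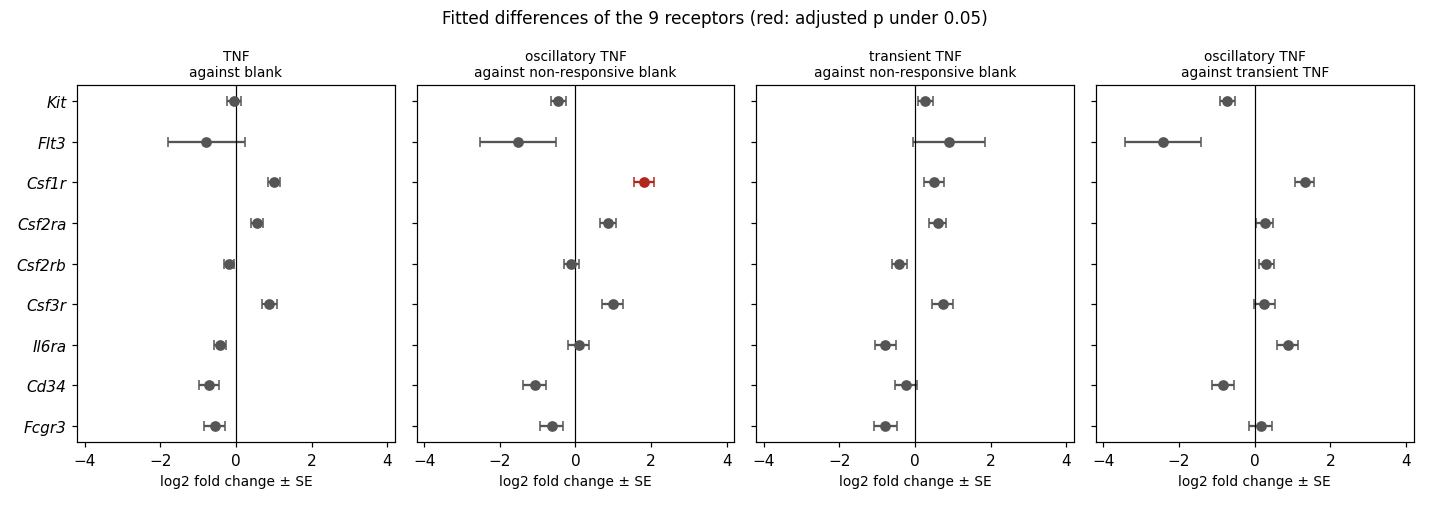
Fitted log2 fold change of each receptor with its standard error, in 4 comparisons (edgeR, first-named group over the other). Red marks an adjusted p under 0.05, which Csf1r reached for oscillatory TNF against non-responsive blank (1.82 ± 0.27). Flt3 has the widest errors.

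Receptors varied together over cells in part. Spearman correlations of log2(CPM + 1), taken within each experiment over all listed cells, were positive in both experiments for 15 of 36 pairs, negative in both for 11 and of opposite sign for 10. With only cells of 8000 or more detected genes, 12 of the 36 pairs changed sign in at least 1 experiment, and 16 of the 72 values moved by over 0.1. The cells of a pair share their library and depth, and the values are descriptions. Csf1r and Il6ra correlated at 0.60 in both experiments, the only pair at 0.4 or more in both. Csf1r correlated with Csf2ra at 0.61 and 0.32, and with Csf2rb at 0.35 and 0.50. Kit correlated with Csf1r at -0.27 and -0.29, and with Il6ra at -0.15 and -0.36. Cd34 correlated with Csf2ra at -0.49 and -0.27, and with Kit at 0.45 and 0.16.

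**Figure D4:**
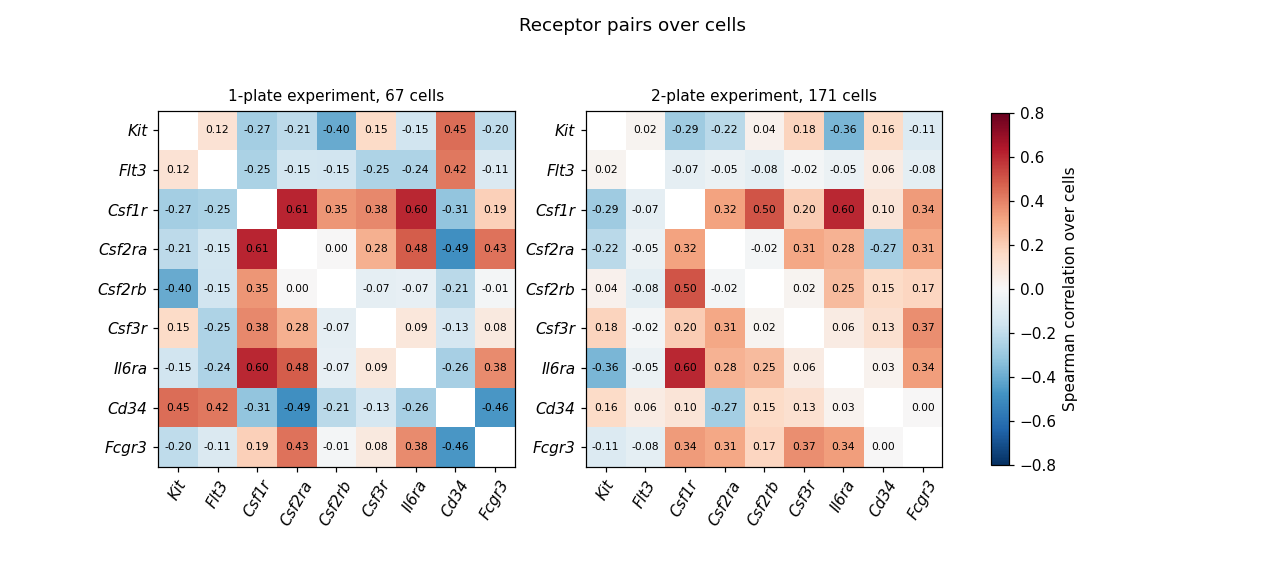
Spearman correlation of each receptor pair over the cells of the 1-plate experiment (left, 67 cells) and the 2-plate experiment (right, 171 cells), red for positive and blue for negative. Csf1r and Il6ra stand at 0.60 in both panels, and Kit and Csf1r at -0.27 and -0.29.

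The receptors differed in how many other genes passed a correlation cutoff with them. Of 10481 genes with a read in at least 25% of the cells of each experiment, 584 (5.57%) correlated with Csf1r at 0.4 or more in both experiments, the highest mean being 0.85. The counts were 245 for Cd34, 205 for Il6ra, 117 for Csf2rb, 82 for Fcgr3, 29 for Csf2ra, 15 for Kit, 10 for Csf3r and 0 for Flt3. Flt3 itself had reads in 23.9% and 6.43% of cells, below the 25% asked of the other genes. With so many tied zeros it could hardly reach 0.4, so its 0 says little about likeness. How far level and detection set the other counts was not tested. The identifiers of those genes had no symbol in the tables used here, so they are given as counts.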

How the data were processed

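Single cells were processed by an adapted Smart-Seq2 protocol, per the labels. The authors deposited whole-read counts per gene, and the submitters' processing notes name SAMtools, featureCounts and Subread 1.5.0. For the aligner, build, annotation and strand, the sources used here give nothing. The 357 count columns that match no sample were not used, nor the 44 samples outside the cell tables in any comparison. The 92 spike-in rows (0.169% and 1.62% of reads in the 1-plate and 2-plate experiment) stayed out of tests.

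Cells are not replicates, so reads were summed per experiment and stimulus (4 sums), or per experiment, stimulus and class with at least 5 cells (10 sums). The replicate was the experiment (n = 2). The labels do not name separate animals or cultures, so the spread behind the p-values may be technical. With the experiment as a term, that spread is how far differences between groups varied between the experiments. The main test was edgeR 4.0.16 (R 4.3.3) quasi-likelihood with TMM factors, the default low-count filter, the experiment as a term and Benjamini-Hochberg adjustment over all genes at 0.05, two-sided. It left 1 and 2 residual degrees of freedom, beside 4.64 and 4.32 prior ones. Most of the weight in each gene's spread was thus borrowed from other genes. Tested on simulated data, it held its nominal share of false calls when the spread followed the trend over genes, and exceeded it when the spread varied gene by gene. An adjusted p just under the threshold, that of Csf1r included, is therefore less firm than it reads.

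Alternatives were DESeq2 1.42.0, other factors, other filters, no experiment term, sums per plate, cells with 8000 or more genes, thinning to 458260 reads (214 cells) and plates left out. Limma 3.58.1 on mean log2(CPM + 1) and median CPM were added after the data were seen. All 9 receptors were named. Members and lists were chosen with earlier results of these data known. Planned lists of other genes and cell type markers, set by symbol, were not analysed here because 0 of 55450 identifiers matched the reference table.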

Additional observations from a re-analysis of the deposited data

Results flagged for a closer look

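In classes of 5 cells, 17 sets of receptor levels were examined for a cell far from the others, and 3 had one. The cutoff is made for normally distributed values, which these CPM were not. The share of sets flagged without a true outlier is therefore not known. In oscillatory blank cells of the 2-plate experiment, 1 cell had 3090 CPM of Csf2rb and the next 533 CPM. In sustained TNF cells of the 2-plate experiment, 1 cell had 2839 CPM of Csf2rb and the next 769 CPM. In the same class, 1 cell had 15.7 CPM of Cd34 and the other cells none, a pattern that this rule always flags.

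The 44 samples outside the cell tables held 26154 reads of the 9 receptors, in 41 samples, with 1805 to 1130586 reads in genes per sample. They have no stimulus or class here and entered no comparison.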

How the results depend on the processing

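Of 536 recomputed log2 values, 462 were classed as the same and 26 as changed in sign. For refits, the same meant that direction and call were kept. For mean and median CPM over cells, it meant a value near the fitted one, whatever its sign. There a sign change was counted only for a receptor called in the main fit. The 26 therefore leave out the Csf2rb medians, at 1.14 for TNF against blank and 1.64 for oscillatory TNF against non-responsive blank. For TNF against blank the count of receptors called was 0, against 2 with DESeq2, 2 without a filter, 2 with the stricter filter and 1 with thinned cells, and 0 to 1 with a plate or experiment left out. For oscillatory TNF against non-responsive blank it was 1, against 0 with spike-in factors, 3 with DESeq2, 2 with the stricter filter, 0 with limma and 0 to 1 with plates left out. The experiment term is the replicate block, and without it that count was 0. For oscillatory against transient TNF it was 0, against 3 with DESeq2 and 1 with the stricter filter. The count stayed 0 for transient TNF against non-responsive blank under every alternative run. The share of all genes called moved too. For oscillatory TNF against non-responsive blank it was 2.35%, against 0.681% with spike-in factors, 9.96% with DESeq2, 8.75% with the stricter filter, 0.398% with limma and 0.205% without the block. The cause of these changes was not tested. A fit without the 2-plate experiment was not possible, since it leaves 1 sum per class.

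With spike-in factors the median log2 value over all genes was 0.42 for TNF against blank and 0.56 for oscillatory TNF against non-responsive blank. It was 0.41 for transient TNF against non-responsive blank and 0.13 for oscillatory against transient TNF. In the main fit these medians were 0.029, 0.018, 0.033 and -0.039, in the same order. Signs changed only in values that no setting called. For TNF against blank, Kit stood at 0.34 with spike-in factors, 0.091 with sums per plate, 0.022 with thinned cells and 0.010 with limma, and Csf2rb at 0.22 with spike-in factors and 0.60 with limma. For oscillatory TNF against non-responsive blank, spike-in factors gave 0.16 for Kit, 0.46 for Csf2rb and 0.040 for Fcgr3, and Csf2rb stood at 0.075 with sums per plate and 1.19 with limma. For transient TNF against non-responsive blank, Cd34 stood at 0.091 with spike-in factors and 0.044 with thinned cells, and Csf2rb at 0.044 with spike-in factors and 0.37 with limma.

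With the 1-plate experiment, Plate1 or Plate2 left out, these values also changed sign in at least 1 case. For TNF against blank, Kit ranged over -0.049 to 0.31, Csf2rb over -0.44 to 0.18 and Fcgr3 over -0.55 to 0.054. For oscillatory TNF against non-responsive blank, Csf2rb ranged over -0.58 to 0.52, Il6ra over -0.25 to 0.52 and Fcgr3 over -0.63 to 0.12. For transient TNF against non-responsive blank, Cd34 ranged over -0.85 to 0.24 and Csf2rb over -0.69 to 0.086. For oscillatory against transient TNF, Csf3r ranged over -0.27 to 0.28.

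Of 18 shares of cells with a read, 6 left their interval at 5 or more reads and 1 with thinned cells.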
